A study of Mus musculus with 6 samples.

Results

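The ER to Golgi secretory machinery is described here as 50 genes, listed by name and not by a cut on their values: 4 subunits of the signal recognition particle, 5 genes of the translocon, 4 of the translocon-associated protein (TRAP) complex, 11 of the COPII coat, 8 cargo receptors and adaptors, 6 subunits of the COPI coat, 11 membrane fusion proteins (SNAREs and the factors that act on them) and 1 Golgi tether. The list was chosen with earlier results of these data known. A gene was counted as found when a probe's transcript accession matched its RefSeq mouse symbol or a synonym. All 50 had a probe, 75 probes in all, and 49 genes were among the 22834 genes tested. Liver RNA of untreated 6-week-old male mice was hybridised to 1-colour (Cy3) Agilent arrays, 1 array a sample, for 3 Sec15 KO samples and 3 WT samples. The exocyst holds secretory vesicles at the plasma membrane before they fuse, and Sec15, one of its subunits, is encoded in the mouse by Exoc6 and Exoc6b. Which of these was deleted, in which cells and on which strain background, is not given in the sources used here, and neither is whether each sample came from 1 animal.

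Proteins that hepatocytes secrete, such as albumin, clotting factors and apolipoproteins, enter the endoplasmic reticulum (ER) while they are being made: the signal recognition particle binds the emerging signal sequence and brings the ribosome to the Sec61 channel. COPII-coated carriers then bud from ER exit sites with the help of the GTPase Sar1, cargo receptors select what is loaded, and COPI-coated carriers bring escaped ER residents and recycling receptors back from the Golgi. SNAREs on carrier and target membrane pair to fuse them, and Nsf with its adaptor Napa takes the pairs apart for reuse. The list is wider than its name in 1 respect: Stx4a, Snap23, Vamp2, Vamp3, Vamp8 and Stxbp3 are known for fusion at the plasma membrane and endosomes, the end of the route on which the exocyst also acts.

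The arrays had some features that bear on every value below. Between 64.8% and 65.4% of the probes were well above background on the Sec15 KO arrays, against 67.3% to 70.3% on the WT arrays, and no spot was saturated. Values are log2 processed signal relative to the 75th percentile of the same array, so that 0 is that percentile; they compare 1 probe between arrays and not 1 gene with another. Replicate 3 of each group lay between its other 2 arrays more often than the others did: Sec15 KO replicate 3 for 58.4% of the genes and 35 of the 49 tested ER to Golgi genes, WT replicate 3 for 66.1% of the genes and 37 of the 49. The sources used here do not say that replicate 3 is independent of the other 2 samples of its group, and every standard error and p-value below treats it as a separate sample. By the time stamps in the file headers, Sec15 KO replicate 2 was scanned with the 3 WT arrays and Sec15 KO replicates 1 and 3 in another scan. The Exoc6 probe was well above background on 0 Sec15 KO arrays and on 1 WT array. The Exoc6b probe that could be measured averaged 0.02 ± 0.11 in the Sec15 KO livers and 0.54 ± 0.24 in the WT livers (SD, n = 3 each), a difference of -0.53 with an adjusted p of 0.0437 over all probes, and its other probe was above background on no array. Whether these probes lie in the deleted part is not known, so they do not check the labels.

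Across the pathway, differences were small and, with the main scaling, mostly upward. Of the 49 tested genes, 14 were higher in Sec15 KO livers and 1, the SNARE Snap23, was lower, by limma with Benjamini-Hochberg adjustment over all 22834 genes at 0.05. That is 28.6% of the 49 genes, set against a background of 17.4% of all genes called higher, and 2.04% called lower against a background of 12.2%. The background moves with the scaling: 3962 genes were called higher and 2790 lower here, 5121 and 2254 when arrays were centred on their medians, and 2464 and 2853 under cyclic loess. The ER to Golgi genes are bright in liver: 41 of the 49, and all 14 that rose, lay in the brightest 3 deciles of the genes tested, and there 30.1% of all genes were called higher and 8.45% lower. Of the 41 bright ER to Golgi genes, 14 (34.1%) were called higher. The 14 rises ran from 1.27-fold to 2.05-fold, and the remaining 34 genes, with differences between -0.27 and 0.60 on the log2 scale, did not pass the test (adjusted p 0.0566 to 0.941). An unadjusted p under 0.05, in either direction, was seen for 24 of the 49 genes (49.0%), against 45.5% of all genes and 56.4% of those in the brightest 3 deciles. The 50th gene, Vamp3, an endosomal and plasma membrane SNARE, was well above background on no array and was not tested; the other 49 were above background on all 6 arrays.

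The median log2 difference, Sec15 KO minus WT, was 0.26 over the 49 genes and 0.06 over all genes tested. Over all genes in the brightest 3 deciles it was 0.25, and over the 41 ER to Golgi genes among them 0.28. Of the 49 genes, 44 had a difference above 0, as had 12456 of all 22834 genes, and 28 lay above the median of their own decile of brightness. All 3 Sec15 KO values lay above all 3 WT values for 29 genes, 59.2% of them, against 30.6% of all genes and 52.2% of those in the brightest 3 deciles. The reverse order was seen for Snap23 alone, against 20.2% of all genes and 13.1% of the bright ones. In the arrays of the first scan, Sec15 KO replicate 2, which is also 1 of the 3 arrays behind every call, lay above the WT mean for 36 of the 49 genes, against 56.9% of all genes. The share among the brightest 3 deciles was not taken for this count. The other scan holds Sec15 KO replicates 1 and 3 only. A fit with the scan as a block therefore takes each difference as Sec15 KO replicate 2 minus the WT mean, from 1 Sec15 KO array. A call in that fit is not an independent check of the main call. With the scan as a block in the fit, 4 of the 14 remained called higher (Lman1, Tmed10, Sec61g and Sec24b) and Snap23 remained called lower, where 5.06% of all genes were called higher and 4.66% lower. When brightness-dependent differences between arrays were removed by cyclic loess, the median of the 49 genes was 0.04, that of all genes -0.02, 26 of the 49 differences were above 0, and 4 genes were called higher (Lman1, Tmed2, Stxbp3 and Sec23a) and 2 lower (Snap23 and Copa), against 10.8% and 12.5% of all genes.

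How far single arrays carry the calls was measured by leaving each out. Without Sec15 KO replicate 3, and likewise without WT replicate 3, the 2 arrays that lie between the others of their group, Snap23 was the only 1 of the 49 genes called, where 2.01% and 1.49% of all genes were called higher and 2.14% and 1.21% lower. Without both, none of the 49 genes and none of the 22834 were called by limma, although 6 of the 49 and 3734 of all genes had an unadjusted p under 0.05. Without WT replicate 2, 4 of the 49 genes were called higher and 1 lower, against 5.19% and 4.67% of all genes. Without Sec15 KO replicate 1, 3 were called higher and 1 lower, against 6.49% and 5.22% of all genes, and without Sec15 KO replicate 2, 22 and 1, against 25.1% and 22.2%. Without WT replicate 1 the counts were 11 and 1, against 15.4% and 11% of all genes. WT replicates 1 and 2 carry the same sample number in their deposited names; averaged as 1 sample they left 11 genes called higher and Snap23 lower, against 16.3% and 10.5% of all genes. Between 42 and 46 of the 49 differences were above 0 in each of these fits.

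**Figure D1:**
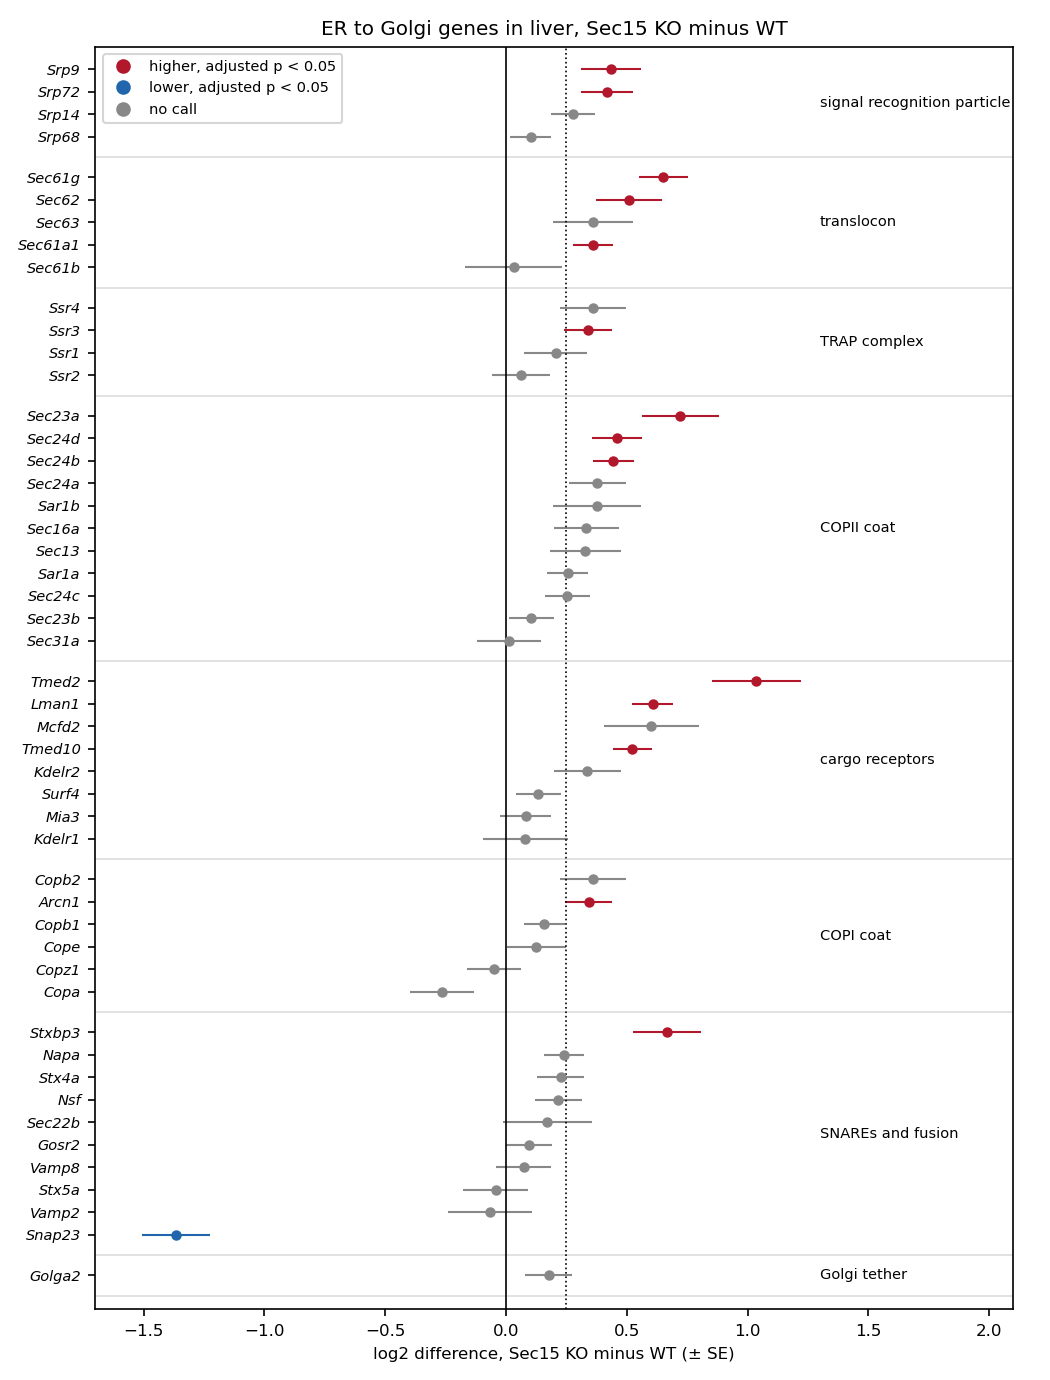
Log2 difference (Sec15 KO minus WT, horizontal axis) of each of the 49 tested ER to Golgi genes, grouped by role; points are limma estimates from 3 Sec15 KO and 3 WT livers, bars their standard errors, and the dotted line the median (0.25) of all genes in the brightest 3 deciles. Most points lie to the right of 0 and around the dotted line, with Tmed2 at 1.04 farthest to the right and Snap23 at -1.37 alone to the far left.

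**Figure D2:**
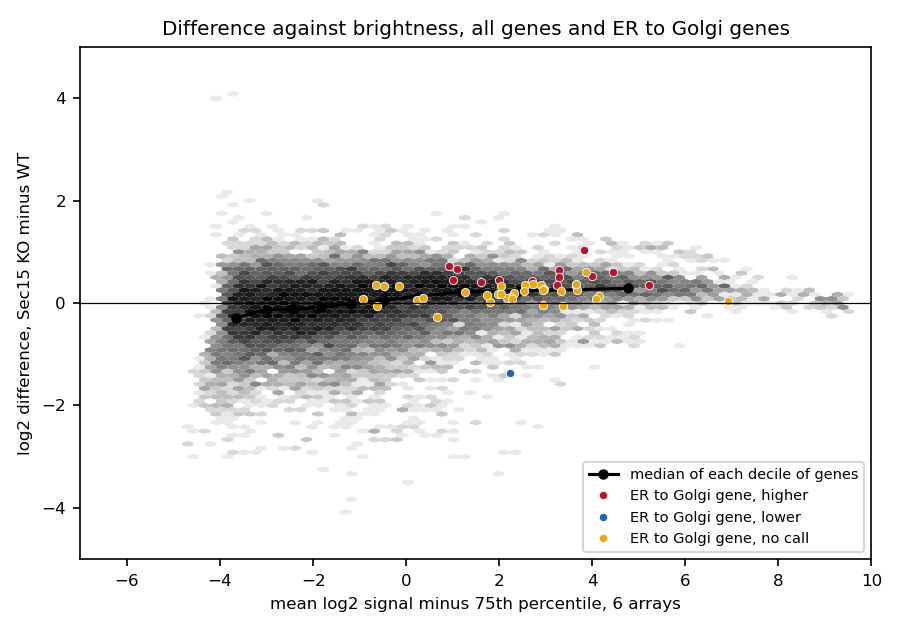
Log2 difference (Sec15 KO minus WT) against mean log2 signal relative to the 75th percentile over the 6 arrays; grey hexagons are all 22834 genes tested, darker where more genes lie (log colour scale), black points the medians of the deciles of genes by brightness, and coloured points the ER to Golgi genes. The median line climbs with brightness, and the ER to Golgi genes lie mostly along its upper end, with 41 of 49 in the brightest 3 deciles.

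At the first step, targeting to the ER, 2 of 4 signal recognition particle subunits rose and none fell, with a median difference of 0.35. The counts of this and each later role stand against 17.4% of all genes called higher and 12.2% lower. In the brightest 3 deciles these shares were 30.1% and 8.45%, and the median difference was 0.25. Srp72, which with Srp68 anchors the particle's protein core on its RNA, read 1.97, 1.67 and 1.81 in the Sec15 KO livers, against 1.41, 1.37 and 1.41 in the WT livers. The groups were apart, the WT livers close to one another, and the difference of 0.42 ± 0.11 (SE), or 1.34-fold, had an adjusted p of 0.0344; a second probe gave 0.43 (adjusted p 0.0387 over all probes). Srp9, one of the pair that slows translation while the ribosome is being targeted, read 2.99, 2.85 and 2.91 in the Sec15 KO livers, against 2.67, 2.31 and 2.47 in the WT livers. It was 1.35-fold higher (0.44 ± 0.12 (SE), adjusted p = 0.0443), and its second probe gave 0.65 (adjusted p 0.0333). Its partner Srp14 read 3.14, 3.01 and 3.16 in the Sec15 KO livers, against 2.83, 2.82 and 2.82 in the WT livers; the groups did not overlap, but the difference of 0.28 missed the threshold (adjusted p = 0.0628). Srp68 read 2.25, 2.23 and 2.29 in the Sec15 KO livers, against 2.09, 2.19 and 2.18 in the WT livers, a difference of 0.10 (adjusted p = 0.387). For Srp72 and Srp9 the difference within the first scan, Sec15 KO replicate 2 minus the WT mean, was 0.28 and 0.36, and neither passed with the scan as a block (adjusted p 0.157 and 0.192).

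The translocon is the channel through which nascent chains enter the ER, and 3 of its 5 genes rose, with a median difference of 0.36. Sec61g, the small gamma subunit of the channel, read 3.51, 3.62 and 3.69 in the Sec15 KO livers, against 2.87, 3.06 and 2.94 in the WT livers. Every Sec15 KO value was above the highest WT value, the rise was 1.57-fold (0.65 ± 0.10 (SE), adjusted p = 0.0114), and it passed with the scan as a block (adjusted p = 0.0485). Sec61a1, which forms the pore itself, read 5.35, 5.40 and 5.45 in the Sec15 KO livers, against 5.05, 5.03 and 5.03 in the WT livers. Both groups were tight and apart by 0.36 ± 0.08 (SE), 1.28-fold (adjusted p = 0.028); after normexp background correction with quantile normalisation this difference was -0.01. Sec62, an accessory factor for chains that enter after translation, read 3.69, 3.27 and 3.66 in the Sec15 KO livers, against 3.04, 3.01 and 3.03 in the WT livers. It was 1.42-fold higher (0.51 ± 0.14 (SE), adjusted p = 0.0401) with Sec15 KO replicate 2 nearest to the WT livers. A dimmer Sec62 probe gave 0.20 without a call (adjusted p = 0.333 over all probes). The J-domain partner Sec63 read -0.38, -0.64 and -0.37 in the Sec15 KO livers, against -0.57, -1.10 and -0.81 in the WT livers; the groups overlapped and the difference of 0.36 did not pass (adjusted p = 0.141).

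Sec61b, the beta subunit of the channel, had probes that disagreed. Its brightest probe read 6.94, 6.89 and 7.00 in the Sec15 KO livers, against 6.52, 7.29 and 6.93 in the WT livers, with the WT livers spread over the whole range of the Sec15 KO livers and a difference of 0.03 (adjusted p = 0.913). A dimmer probe for the same gene read 2.09, 1.48 and 2.16 in the Sec15 KO livers, against 3.29 and 3.69 in WT livers 2 and 3, where WT replicate 1 was left out as an outlier spot. That probe's difference was -1.58 (adjusted p = 0.0174 over all probes, with 2 WT values). Which probe reports the Sec61b transcript more truly was not tested.

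The TRAP complex sits beside the channel and assists the entry of some signal sequences. Of its 4 genes 1 rose and none fell, with a median difference of 0.27. Ssr3 read 3.91, 3.71 and 3.82 in the Sec15 KO livers, against 3.54, 3.40 and 3.49 in the WT livers, a 1.27-fold rise (0.34 ± 0.10 (SE)) that passed narrowly (adjusted p = 0.0481). Adjusted over all probes the same probe was not called (adjusted p = 0.05004), and neither was a dimmer one (0.45, adjusted p = 0.388). Ssr4 read 3.26, 2.82 and 3.18 in the Sec15 KO livers, against 2.73, 2.71 and 2.74 in the WT livers: its groups did not overlap, but Sec15 KO replicate 2 lay close to the WT livers and the difference of 0.36 did not pass (adjusted p = 0.094). The other subunits overlapped between groups: Ssr1 read 2.50, 2.28 and 2.48 in the Sec15 KO livers, against 2.40, 2.05 and 2.19 in the WT livers (0.21, adjusted p = 0.256). Ssr2 read 0.42, 0.09 and 0.28 in the Sec15 KO livers, against 0.26, 0.10 and 0.24 in the WT livers (0.06, adjusted p = 0.699).

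In the COPII coat, which builds carriers at ER exit sites, 3 of 11 genes rose and none fell, with a median difference of 0.33. The 3 are parts of the inner coat, in which Sec23 activates the Sar1 GTPase and Sec24 binds cargo. Sec23a read 1.47, 1.05 and 1.32 in the Sec15 KO livers, against 0.75, 0.36 and 0.56 in the WT livers. This was the largest difference in the coat, 1.65-fold (0.72 ± 0.16 (SE), adjusted p = 0.0237), and the groups were apart. Sec24b read 1.20, 1.29 and 1.21 in the Sec15 KO livers, against 0.77, 0.81 and 0.80 in the WT livers, 1.36-fold higher (0.44 ± 0.09 (SE), adjusted p = 0.0174), and passed with the scan as a block (adjusted p = 0.0454). Sec24d read 2.33, 2.09 and 2.24 in the Sec15 KO livers, against 1.83, 1.70 and 1.77 in the WT livers, 1.37-fold higher (0.46 ± 0.10 (SE), adjusted p = 0.0257). Sec24b and Sec24d belong to different pairs of Sec24 cargo adaptors, and their closest relatives gave no call.

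Sec24a, the relative of Sec24b, read 3.03, 2.70 and 3.00 in the Sec15 KO livers, against 2.51, 2.55 and 2.54 in the WT livers. It was the gene nearest to the threshold without passing it (0.38 ± 0.12 (SE), adjusted p = 0.0566), and 2 further probes gave 0.13 and -0.35. The other 7 COPII genes had differences between 0.01 and 0.38 with adjusted p from 0.0676 to 0.941. They are the scaffold Sec16a (0.33), the outer coat genes Sec13 (0.33) and Sec31a (0.01), the GTPases Sar1a (0.26) and Sar1b (0.38), and Sec24c (0.25) and Sec23b (0.10). Sec16a, Sar1a and Sec24c had all Sec15 KO values above all WT values, and a dimmer Sar1a probe passed the test over all probes (0.59, adjusted p = 0.0231).

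The ratio of 2 related genes within an array is not changed by a shift of the whole array, so 5 pairs of paralogs were compared over the 6 samples with an exact permutation test, two-sided, which with 3 against 3 cannot go below p = 0.1. A shift that depends on brightness can still change the ratio where the 2 genes are not equally bright. Sec23a lay in decile 8 of brightness and Sec23b in decile 7. Sec23a minus Sec23b was 1.09, 0.68 and 0.83 on the log2 scale in the Sec15 KO livers, against 0.52, -0.03 and 0.25 in the WT livers. The means were 0.87 ± 0.21 and 0.25 ± 0.27 (SD, n = 3 each) and the groups did not overlap, with an exact p of 0.1 and 0.5 after adjustment over the 5 pairs. The other pairs had an exact p between 0.2 and 1: the difference between groups was -0.12 for Sar1a minus Sar1b, -0.06 for Sec24a minus Sec24b, -0.20 for Sec24c minus Sec24d and -0.26 for Kdelr1 minus Kdelr2. No pair passed, and the pair of Vamp2 and Vamp3 could not be compared since Vamp3 was not measured.

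Promoter sequence is shown for 5 genes of the list, coat subunits and a SNARE, that hold a motif of the secretory stress response. RefSeq promoters (GRCm38.p6, 250 bases before to 50 after the gene's start) were at hand for 41 of the 50 genes and were searched on both strands for letters known from genes of the unfolded protein response: UPRE (TGACGTGG), ERSE (CCAAT, 9 bases, CCACG) and ERSE-II (ATTGG, 1 base, CCACG). The UPRE letters stood in 5 of the 41 promoters, 12.2%, against 0.676% of all 32851 promoters and 0.922% of those of 12367 tested genes. ERSE and ERSE-II stood in none of the 41, and in 0.119% and 0.0365% of all promoters. Read on the other strand UPRE is CCACGTCA, so it shares CCACG with the end of both ERSE motifs. The 5 genes are Sec23a and Sec24d, which rose, and Copb1, Copb2 and Stx5a, which gave no call. A match is a description of letters and not a site of binding, and the genes with and without it were not tested against each other. The promoters of the 2 genes that rose are given whole, 5′ to 3′ on the gene's strand, with the UPRE letters in capitals. For Sec23a the letters begin at base 7, with the start base counted as 1, in chr12:59011968-59012267 (minus strand). For Sec24d they begin 26 bases before the start, in chr3:123267246-123267545 (plus strand).
Sec23a: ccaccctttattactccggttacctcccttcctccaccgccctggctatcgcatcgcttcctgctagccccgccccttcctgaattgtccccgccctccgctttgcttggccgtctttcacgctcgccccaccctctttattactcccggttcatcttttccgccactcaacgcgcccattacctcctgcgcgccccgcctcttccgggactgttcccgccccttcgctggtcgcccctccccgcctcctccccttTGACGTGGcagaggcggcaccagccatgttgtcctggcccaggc
Sec24d: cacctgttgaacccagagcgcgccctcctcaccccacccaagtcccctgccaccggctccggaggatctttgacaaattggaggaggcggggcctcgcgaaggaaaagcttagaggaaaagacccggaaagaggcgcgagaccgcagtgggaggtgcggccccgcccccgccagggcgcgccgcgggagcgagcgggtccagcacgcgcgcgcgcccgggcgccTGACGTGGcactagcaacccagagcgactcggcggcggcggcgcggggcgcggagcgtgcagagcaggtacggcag

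The windows around the match in the 3 genes with no call show the letters on the other strand, CCACGTCA, and in Stx5a on both. They are chr7:114254675-114254734 (minus strand) for Copb1, chr9:98563698-98563757 (plus strand) for Copb2 and chr19:8741407-8741473 (plus strand) for Stx5a.
Copb1: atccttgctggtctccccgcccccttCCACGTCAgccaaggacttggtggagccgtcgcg
Copb2: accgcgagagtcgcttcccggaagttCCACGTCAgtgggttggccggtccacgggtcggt
Stx5a: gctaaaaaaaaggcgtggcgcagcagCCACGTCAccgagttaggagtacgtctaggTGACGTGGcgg

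Of 8 cargo receptors and adaptors 3 were called higher and none lower, with a median difference of 0.43. Lman1, the lectin that carries certain clotting factors out of the ER, read 4.74, 4.72 and 4.79 in the Sec15 KO livers, against 4.19, 4.13 and 4.11 in the WT livers. The values within each group lay close together and the difference was 1.52-fold (0.61 ± 0.09 (SE), adjusted p = 0.00962, and 0.0398 with the scan as a block). Tmed10, a transmembrane adaptor of the Tmed family that loads GPI-anchored and other cargo, read 4.28, 4.23 and 4.26 in the Sec15 KO livers, against 3.74, 3.73 and 3.73 in the WT livers, a 1.44-fold rise (0.52 ± 0.08 (SE), adjusted p = 0.0114, and 0.0448 with the scan as a block). Tmed2, its partner in the same complexes, read 4.39, 4.23 and 4.41 in the Sec15 KO livers, against 3.65, 2.98 and 3.30 in the WT livers. It had the largest rise of the 49 genes, 2.05-fold (1.04 ± 0.18 (SE), adjusted p = 0.0147), with an SD of 0.10 among the Sec15 KO livers, against 0.33 among the WT livers. For all 3 genes a dimmer probe went the same way by less and was not called. These probes gave 0.18 for Lman1, 0.27 for Tmed10 and 0.32 for Tmed2 (adjusted p 0.221, 0.166 and 0.273 over all probes).

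Mcfd2, the calcium-binding partner of Lman1 in clotting factor transport, read 4.42, 3.73 and 4.37 in the Sec15 KO livers, against 3.56, 3.58 and 3.58 in the WT livers. Sec15 KO replicates 1 and 3, scanned apart from the rest, were high, while replicate 2 lay just above the WT livers; the difference of 0.60 did not pass (adjusted p = 0.0656). The KDEL receptor Kdelr2, which returns escaped ER proteins, differed by 0.34 with all Sec15 KO values above all WT values (adjusted p = 0.111). Surf4, a receptor for lipoproteins and other hepatocyte cargo, differed by 0.13 (adjusted p = 0.293) and Mia3, which helps load collagen and other large cargo, by 0.08 (adjusted p = 0.567). Kdelr1 had 2 probes that disagreed: the brighter one differed by 0.08 (adjusted p = 0.74). The dimmer one read -1.92, -2.08 and -2.18 in the Sec15 KO livers, against -1.06, -1.49 and -1.32 in the WT livers, without overlap, and was called lower over all probes (-0.77, adjusted p = 0.0172).

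The COPI coat, which works in the retrograde direction, had 1 of 6 genes called higher, none lower, and a median difference of 0.14. Arcn1, the delta subunit, read 3.46, 3.34 and 3.42 in the Sec15 KO livers, against 3.17, 2.99 and 3.04 in the WT livers, 1.27-fold higher (0.34 ± 0.10 (SE), adjusted p = 0.0451), without overlap. Its dimmer probe went the other way without a call (-0.23, adjusted p = 0.641). Copb2 read 2.94, 2.48 and 2.78 in the Sec15 KO livers, against 2.36, 2.39 and 2.36 in the WT livers; the difference of 0.36 did not pass (adjusted p = 0.0942). Copb1 read 1.82, 1.87 and 1.78 in the Sec15 KO livers, against 1.66, 1.67 and 1.66 in the WT livers: the groups were apart by 0.16, too little to pass (adjusted p = 0.186). Copa, the alpha subunit, was the gene of the coat farthest below 0 and read 0.60, 0.43 and 0.57 in the Sec15 KO livers, against 0.99, 0.59 and 0.82 in the WT livers (-0.27, adjusted p = 0.166); under cyclic loess it was called lower. Cope (0.13) and Copz1 (-0.05) overlapped between groups.

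Among the fusion proteins 1 of the 10 measured genes rose and 1 fell, with a median difference of 0.13. Stxbp3, a regulator that binds syntaxin 4 at the plasma membrane, read 1.34, 1.51 and 1.47 in the Sec15 KO livers, against 0.97, 0.52 and 0.83 in the WT livers. It was 1.59-fold higher (0.67 ± 0.14 (SE), adjusted p = 0.022), and all 3 of its probes were called higher, with differences of 0.67, 0.93 and 0.74. Snap23, which pairs with syntaxin 4 in that same fusion reaction, read 1.45, 1.63 and 1.60 in the Sec15 KO livers, against 2.67, 3.05 and 3.06 in the WT livers. The groups lay far apart and Snap23 was 2.58-fold lower in Sec15 KO livers (-1.37 ± 0.14 (SE), adjusted p = 0.00621, and 0.0313 with the scan as a block). The 2 Snap23 probes were designed to different RefSeq transcripts, and the fall was seen in 1 of them. The dimmer probe read -2.36, -3.03 and -2.61 in the Sec15 KO livers, against -2.72, -2.54 and -2.92 in the WT livers and differed by 0.06 (adjusted p = 0.835). Whether the Snap23 transcripts changed together was not tested.

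The syntaxin itself, Stx4a, read 2.66, 2.59 and 2.69 in the Sec15 KO livers, against 2.52, 2.32 and 2.42 in the WT livers; the groups did not overlap, but the difference of 0.23 did not pass (adjusted p = 0.123). Napa, the adaptor for Nsf, read 3.46, 3.42 and 3.46 in the Sec15 KO livers, against 3.21, 3.23 and 3.17 in the WT livers, a small and even difference of 0.24 that missed the threshold (adjusted p = 0.0755), while its dimmer probe was called higher (0.44, adjusted p = 0.0302 over all probes). Nsf differed by 0.22 (adjusted p = 0.133). The SNAREs that act between ER and Golgi, Sec22b (0.17), Gosr2 (0.10) and Stx5a (-0.04), overlapped between groups with adjusted p of 0.494, 0.451 and 0.817, as did Vamp8 (0.07) and Vamp2 (-0.07). Golga2, the cis-Golgi tether, read 2.03, 2.25 and 2.09 in the Sec15 KO livers, against 1.93, 1.96 and 1.94 in the WT livers, a difference of 0.18 (adjusted p = 0.206).

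**Figure D3:**
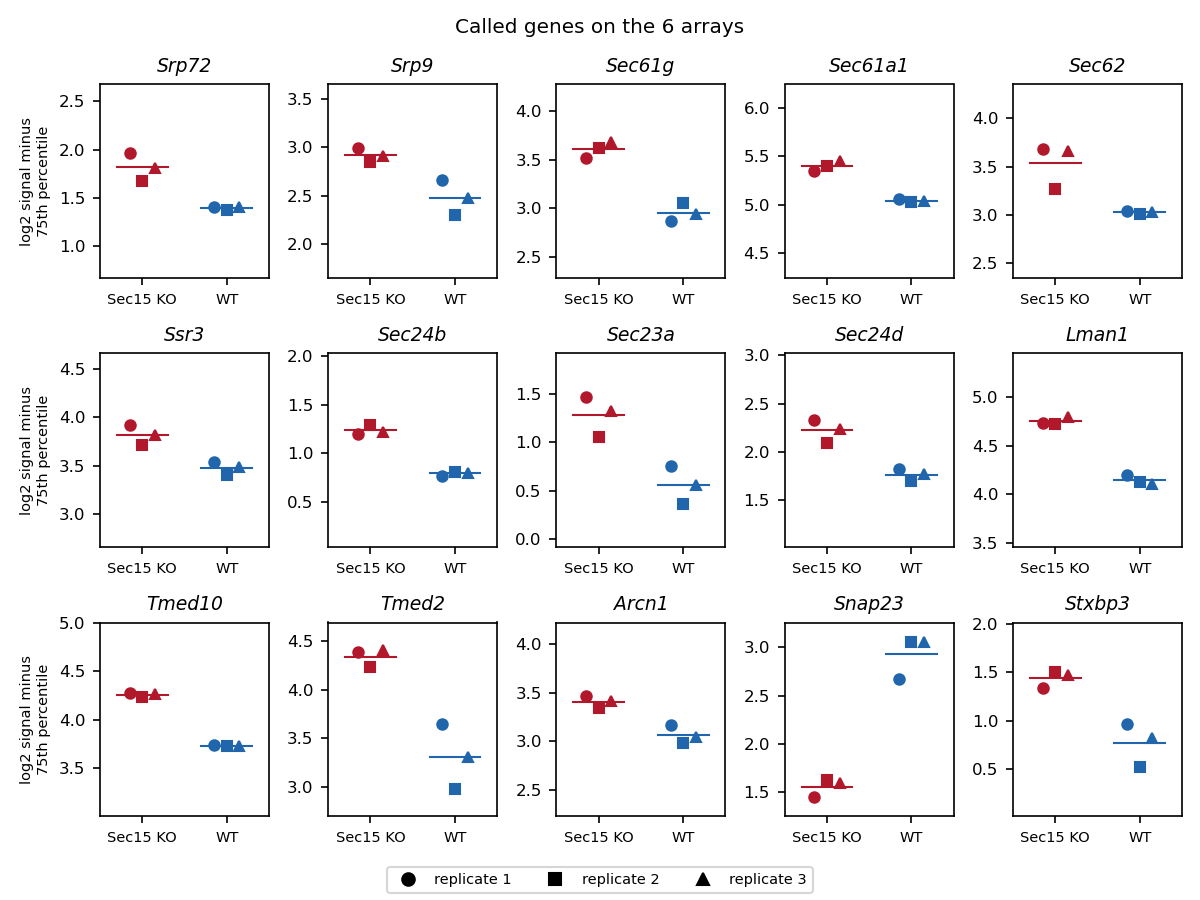
Log2 processed signal relative to the array's 75th percentile (vertical axis, each panel spanning 2 log2 units) of the 15 called genes on each array, Sec15 KO livers in red left of WT livers in blue; symbols mark the replicate number and lines the group means. The groups are apart in all 15 panels, and Snap23 alone is lower in Sec15 KO livers. Sec15 KO replicate 2 lies nearest to the WT livers for Srp72, Srp9, Sec62, Ssr3, Sec23a, Sec24d, Lman1, Tmed10, Tmed2, Arcn1 and Snap23. For Sec61g, Sec61a1, Sec24b and Stxbp3 the nearest is Sec15 KO replicate 1.

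Probes of 1 gene could be compared for 22 of the 49 genes, of which 15 had all probes in the same direction and 7 did not. In 4 of those 7, Arcn1, Kdelr1, Sec61b and Snap23, at least 1 probe was called. Over the 74 probes of the 49 genes, 21 were called higher and 3 lower, where 17% and 11.6% of all probes were. Srp72, Srp9 and Stxbp3 were the genes that rose by every probe, and Sar1a, Napa, Sec63 and Gosr2 were called higher by their dimmer probe alone (0.59, 0.44, 0.33 and 0.37). The 3 probes called lower were 1 each of Snap23, Kdelr1 and Sec61b.

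**Figure D4:**
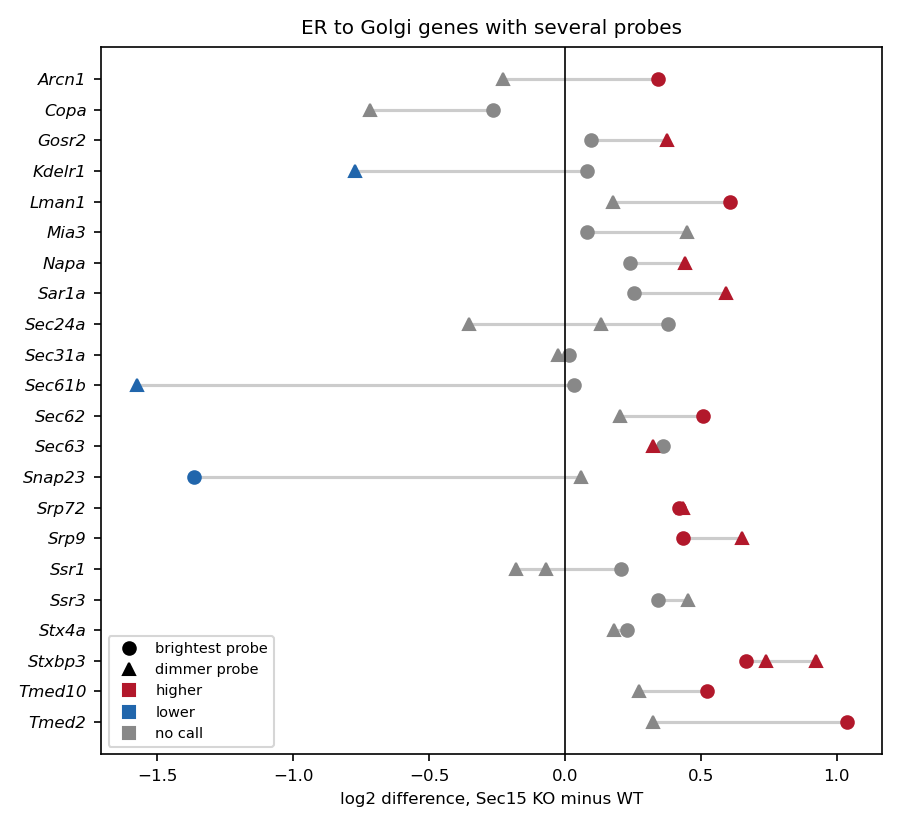
Log2 difference (Sec15 KO minus WT, horizontal axis) of every tested probe of the 22 genes with several probes; circles are the brightest probe, which stands for the gene, triangles dimmer probes, and colours show calls over all probes at an adjusted p of 0.05. The widest gaps between probes of 1 gene are those of Sec61b and Snap23.

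Around these genes, 83 of 90 further genes of the pathway were tested, and 19 were higher (22.9%), 4 lower (4.82%) and 60 without a call, with a median difference of 0.21. The shares of all genes were 17.4% higher and 12.2% lower, and 30.1% and 8.45% in the brightest 3 deciles; the counts of each group below stand against the same shares. In targeting and signal cleavage 2 of 13 rose and 1 fell. Spcs3, a signal peptidase subunit, read 2.31, 2.28 and 2.31 in the Sec15 KO livers, against 1.61, 1.33 and 1.48 in the WT livers (1.77-fold, adjusted p = 0.00785), though its dimmer probe gave -0.04 (adjusted p = 0.727). Get4, of the tail-anchored protein pathway, was 1.42-fold higher (0.51, adjusted p = 0.04). Srprb, the beta subunit of the receptor for the signal recognition particle, read -2.94, -0.12 and -2.29 in the Sec15 KO livers, against 1.16, 2.13 and 1.63 in the WT livers. This was the largest difference among all these genes (-3.42 ± 0.74 (SE), adjusted p = 0.0228), the Sec15 KO livers were widely spread with replicate 2 highest, at a difference of -1.76 from the WT mean, and the call was lost with the scan as a block (adjusted p = 0.066). The other probe gave 0.04 (adjusted p = 0.797).

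Of 10 genes of oligosaccharyltransferase, the enzyme that glycosylates chains as they enter, 2 rose and 1 fell. Tusc3, one of its exchangeable subunits, read -1.23, -1.93 and -1.50 in the Sec15 KO livers, against -2.38, -2.94 and -2.66 in the WT livers (2.16-fold higher, adjusted p = 0.0203). Magt1, which holds the same place in the enzyme as Tusc3, read 0.41, 0.39 and 0.40 in the Sec15 KO livers, against 0.91, 0.98 and 1.25 in the WT livers (1.56-fold lower, adjusted p = 0.0153), with a second probe at 0.10 (adjusted p = 0.715). With the scan as a block neither passed (adjusted p 0.113 for Tusc3 and 0.0635 for Magt1). The catalytic subunit Stt3a was 1.98-fold higher (0.98, adjusted p = 0.0337). Of 15 other genes of COPII and ER exit 3 rose: the Sec31-binding Pdcd6 by 0.58 (adjusted p = 0.0276), the lectin Lman2 by 0.39 (adjusted p = 0.0317) and the ER chaperone of membrane proteins Bcap29 by 0.77 (adjusted p = 0.0329).

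Further genes of COPI and its Arf GTPases gave 4 rises and 1 fall among 16. The fall was Arf4, a GTPase of the early Golgi, which read -1.44, -1.48 and -1.62 in the Sec15 KO livers, against -0.42, -0.06 and -0.04 in the WT livers. It was 2.53-fold lower (-1.34 ± 0.14 (SE), adjusted p = 0.00621), passed with the scan as a block (adjusted p = 0.0305), and its second probe was lower too (-0.87, adjusted p = 0.0101). Tmed5 read 1.54, 1.32 and 1.48 in the Sec15 KO livers, against 0.75, 0.66 and 0.57 in the WT livers (1.72-fold, adjusted p = 0.00869) and its second probe gave 1.00 (adjusted p = 0.00701). Tmed1 differed by 0.39 (adjusted p = 0.0232). The Tmed genes Tmed9 (0.45), Tmed3 (0.39) and Tmed4 (0.28) gave no call (adjusted p 0.0651, 0.0861 and 0.118), and Tmed6 was not tested. The remaining rises were Tmed7 (1.07) and Arf1 (0.48), which recruits the coat.

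Tethers and other SNAREs had 8 rises and 1 fall among 29 genes. Trappc6a, a subunit of the TRAPP tether, was 1.45-fold higher (0.54, adjusted p = 0.0142), and Trappc6b, Trappc2 and Trappc5 rose by 0.71, 0.48 and 0.36. Trappc4 (0.46), Trappc3 (0.08) and Trappc1 (-0.05), the other TRAPP genes listed, gave no call (adjusted p 0.0878, 0.726 and 0.748). Gorasp1, a GRASP protein that stacks Golgi cisternae, read 1.44, 1.31 and 1.49 in the Sec15 KO livers, against 1.05, 0.87 and 0.90 in the WT livers (1.39-fold higher, adjusted p = 0.0224). Gorasp2, its relative, read -0.69, -0.39 and -0.79 in the Sec15 KO livers, against -0.04, 0.03 and 0.03 in the WT livers (1.55-fold lower, adjusted p = 0.02). With the scan as a block neither passed (adjusted p 0.1 for Gorasp1 and 0.0752 for Gorasp2). Those genes beyond the top 3 of each group by p are named here after their values were seen, as are the SNAREs Bet1l (0.47), Sec22c (0.76) and Vamp7 (0.32), which also rose.

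Liver is a mixture, and in bulk RNA fewer cells of a type and less RNA per cell cannot be told apart, so markers of other cells are set beside these values as summed signal relative to the 75th percentile. Of 10 hepatocyte markers 3 rose and none fell, summing to 3649 to 4327 in the Sec15 KO livers, against 3283 to 3720 in the WT livers. All 10 lay in the brightest decile of genes, where 36.3% of all genes were called higher and 3.77% lower. Over all genes tested 17.4% were called higher and 12.2% lower, and the counts of the lists below stand against those shares. The markers of cells specialised in secretion come next. Of 12 tested pancreatic acinar markers 1 was higher and 8 lower (sums 14.3 to 14.6 in Sec15 KO livers, against 16.1 to 20.2 in WT livers), and of 18 listed Cela1, Cela2a, Cela3b and Pnliprp1 were above background on no array. Of the 8, Try4 and Cpa1 were well above background on 1 Sec15 KO array each, so the size of their falls is uncertain. Amy2a5, the 1 that was higher, made up 62.8% to 67.2% of the sum in Sec15 KO livers, against 33.1% to 42.2% in WT livers, and the rest summed to 4.70 to 5.32 in Sec15 KO livers, against 9.32 to 13.5 in WT livers. Of 7 tested plasma cell markers 0 were higher and 1 lower (16.8 to 19.7 in Sec15 KO livers, against 14.0 to 19.4 in WT livers), with Irf4 above background on no array. Xbp1, which hepatocytes also express, made up 83.0% to 84.5% of that sum in Sec15 KO livers, against 77.4% to 82.3% in WT livers. Among blood cell markers, 5 of 8 red cell markers rose (78.8 to 99.8 in Sec15 KO livers, against 21.4 to 25.6 in WT livers) and 4 of 7 neutrophil markers (8.82 to 15.3, against 6.62 to 7.31). Among lining cell markers, 3 of 7 Kupffer cell markers rose (43.5 to 56.1, against 31.9 to 32.2) and 5 of 8 sinusoidal endothelial markers (29.7 to 39.3, against 23.9 to 24.3). In these 4 lists none was called lower. Without a call, the endothelial Pecam1 differed by -0.39, the neutrophil Ltf by -0.26 and the red cell Alas2 by 0.02. Most Kupffer cell and sinusoidal endothelial markers lay in the brightest 3 deciles, where 30.1% of all genes were called higher and 8.45% lower. Elane made up 24.6% to 55.5% of the neutrophil sum in Sec15 KO livers, against 72.7% to 81.5% in WT livers. It differed by -0.30 without a call (adjusted p = 0.104), with all Sec15 KO values below all WT values. The other neutrophil markers summed to 3.93 to 11.6 in Sec15 KO livers, against 1.23 to 1.99 in WT livers. No marker of the 4 lists of blood and lining cells was below background on every array. Their part in the differences of the ER to Golgi genes was not tested.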

How the data were processed

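The deposited values are spot intensities read with Agilent Feature Extraction 11.0.1.1, per the file headers: background-subtracted and detrended, with low values replaced by a small surrogate, and not normalised between arrays. The deposited files also hold other values, which are flags coded 0 or 1 per spot (outlier, saturated, well above background). Outlier spots (178 to 236 per array of 43020) were left out and spots of 1 of the 39429 probes averaged. From each log2 processed signal the 75th percentile of its array was subtracted, and probes well above background on at least 3 of 6 arrays were kept (27057). Symbols came from transcript accessions through RefSeq's gene list (GRCm38.p6, names only): 27234 probes matched 1 symbol and 12195 none. A gene was read from its probe with the highest mean over the 6 arrays, which gave 22834 genes, 15558 with a symbol.

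The groups were fitted in R 4.3.3 by lmFit and eBayes of limma 3.58.1 (files read with jsonlite 2.0.0 and data.table in version 1.17.8), with Benjamini-Hochberg adjustment over all genes and a threshold of 0.05; probes were adjusted over all probes. The number of arrays limits the precision, and since the labels do not say that samples came from separate animals, p-values cover only how these samples differ, which may be technical. The 50 genes and all lists were chosen with earlier results of these data known. Values on every array are given for up to 4 genes of each role and up to 3 of each group of further pathway genes, by smallest p; every gene whose probes differ in direction with a call is named. Alternatives changed the normalisation, background correction (normexp, offset 50), filter, variance model, probe rule, blocks and samples. Same-numbered samples were checked for pairing, and the check could not decide it.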

Additional observations from a re-analysis of the deposited data

How the results depend on the processing

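Counts are given as genes called higher and lower. Each array centred on its median put the median of the 49 genes at 0.38 and that of all genes at 0.18. Quantile normalisation left 7 of the 49 genes called higher and a median of 0.12, with Sec61b at -0.20 and Srp68 at -0.021. Cyclic loess gave 4 higher and 2 lower with a median of 0.035 (all genes -0.019), 10 higher and 9 lower among the further pathway genes, and 2464 higher among all genes. It turned Sec61b (-0.26), Srp68 (-0.13), Ssr2 (-0.055), Copb1 (-0.049), Golga2 (-0.046), Ssr1 (-0.031), Napa (-0.027) and Stx4a (-0.018). Normexp with quantile normalisation gave 8 higher, a median of 0.12 and 8 further pathway genes lower, with Sec61b at -0.16, Sec61a1 at -0.0080 and Sar1a minus Sar1b at 0.057. With no filter on dim probes 8 of the 49 and 2613 of all genes were higher. With trend and robust moderation 7 further pathway genes were lower. Averaging a gene's probes gave 2 of the 49 lower, with Sec61b at -1.28, Kdelr1 at -0.35, Ssr1 at -0.015 and Sar1a minus Sar1b at 0.048. The fit with array weights did not converge, and its counts (43 and 6 of the 49, 62 and 18 further pathway genes, 12306 and 9954 of all genes, Kdelr1 at -0.21) should not be used. With the scan as a block, 4 of the 49 genes were higher, 3 and 2 further pathway genes higher and lower, and 1156 and 1065 of all genes. There Sec61b was -0.018, Ssr2 -0.11, Sar1a minus Sar1b 0.32 and Kdelr1 minus Kdelr2 0.14. The cause of these changes was not tested.

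Leaving out 1 array at a time gave 0 to 22 of the 49 genes higher and 1 lower, 0 to 34 and 1 to 9 further pathway genes, and 341 to 5735 higher and 276 to 5073 lower among all genes, lowest without WT replicate 3 and highest without Sec15 KO replicate 2. Differences that turned ranged from -0.17 (without WT replicate 1) to 0.22 for Sec61b, from -0.061 (without Sec15 KO replicate 2) to 0.16 for Kdelr1 and from -0.016 (without Sec15 KO replicate 1) to 0.15 for Ssr2. Paralog differences that turned ranged from -0.34 to 0.024 (without Sec15 KO replicate 1) for Sar1a minus Sar1b and from -0.14 to 0.067 (without Sec15 KO replicate 2) for Sec24a minus Sec24b. Without replicate 3 of both groups, an alternative chosen after seeing the data, all counts were 0.

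Over 19 alternatives for each of the named genes of the list, 421 of 589 values stayed in direction and side of the threshold, 118 lost a call, 28 gained one and 22 turned. Only a called gene can lose a call, so all 118 losses fell on the 15 called genes. Of the 19 alternatives, Ssr3 kept its call in 5, Sec62 in 6, Lman1 and Sec61g in 15 and Snap23 in 18. For a gene without a call, staying without one counted as unchanged. The values include those of the fit with array weights, which called all 49 genes. With the replicate number as a block, 7 of the 49 genes were higher and 1 lower, where 2917 (12.8%) and 2395 (10.5%) of all 22834 genes were. Deviations of same-numbered samples from their group means correlated at 0.11, 0.11 and 0.02. Sec15 KO replicates 1 and 2 correlated best with the WT sample of their own number, and Sec15 KO replicate 3 with WT replicate 1. Replicate 3 of each group lies between the other 2 for most genes, so these deviations are not independent of one another. The check therefore cannot decide whether the numbers pair the samples.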
